A study of Mus musculus with 8 samples.

Results

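The calcium pumps and store channels described here are 10 listed genes, Atp2b1, Atp2b2, Atp2b3, Atp2b4, Atp2a2, Atp2a3, Itpr1, Itpr2, Itpr3 and Ryr1, a list proposed with results of these data in view. The probe set of each gene was chosen by its mean over the 8 arrays, as the brightest of those whose annotation gives the gene as the only symbol. Of the 10 genes, 9 were measured among 22180 genes with a probe set of their own, and Itpr1, the main IP3 receptor gene of Purkinje cells, was not analysed here. Because of how the list arose, the values below describe these genes and give no independent support to any difference. The tissue was medulloblastoma, a tumour of the cerebellum, harvested from mice at postnatal day 15. In 4 tumours the genotype was Math1-Cre/SmoM2/Bcl2l1 f/f, in which Cre deleted Bcl2l1, the gene that encodes the survival protein BCL-xL, and 4 control tumours were Math1-Cre/SmoM2. Both groups thus carried Math1-Cre, which is active in the granule neuron lineage, and SmoM2, an active form of the hedgehog pathway protein Smoothened that drives the tumours. Cells outside that lineage kept Bcl2l1 in both groups, as far as Math1-Cre is confined to it, and each tumour was 1 animal on 1 Affymetrix whole-transcript array.

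Neurons and glia keep calcium in the cytosol low with pumps of 2 families. Plasma membrane calcium pumps (PMCA, the Atp2b genes) push it out of the cell, and sarco-endoplasmic reticulum pumps (SERCA, the Atp2a genes) load it into the endoplasmic reticulum. IP3 receptors (the Itpr genes) and ryanodine receptors (the Ryr genes) are the channels that let it out of that store again. Purkinje cells are known for their rich supply of store pumps and channels, granule neurons of the cerebellum use several of the plasma membrane pumps, and BCL-xL is known to bind IP3 receptors.

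Bcl2l1 itself averaged 5.48 ± 0.15 in the Bcl2l1-deleted tumours and 6.84 ± 0.19 in the controls (log2 RMA values, SD, n = 4 each), read by a probe set whose place relative to the floxed part was not analysed here. Control replicate 2 correlated with the other 7 arrays at 0.881 to 0.925 over all probe sets, against at least 0.956 in every other pair. Chemosensory receptor genes (Olfr and Vmn, 1394 in all), which read mostly background in brain, had medians of 2.79 to 2.92 in Bcl2l1-deleted tumours and 2.94 to 3.60 in controls. The change of the median tested gene was 0.17 (log2), so a relative change below is the fitted log2 change, Bcl2l1-deleted minus control, less this 0.17, given ± SE. The 0.17 rests in part on control replicate 2: its tested genes had a median of 6.26, against 6.73 to 6.81 on the other controls, and without it the median gene changed by 0.08. Adjusted p-values are from limma over 15526 tested genes and test the fitted change against 0. All 9 measured members were bright enough to be tested. Of them 1 was lower, Atp2b3, and 1 was higher, Itpr2, at an adjusted p under 0.05, while over all tested genes 1.60% were lower, 4.93% were higher and 6.52% were called in either direction. Of all called genes 75.5% were higher, but 35.8% were when each array was centred on its tested genes. The same 2 members were those whose groups did not overlap, against 23.4% of all tested genes. Relative to the median gene 8 of the 9 members stood below 0, with a median of -0.36. The number of arrays limits the precision, and since these are bulk tumours, fewer cells of a type and less RNA per cell cannot be told apart.

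**Figure D1:**
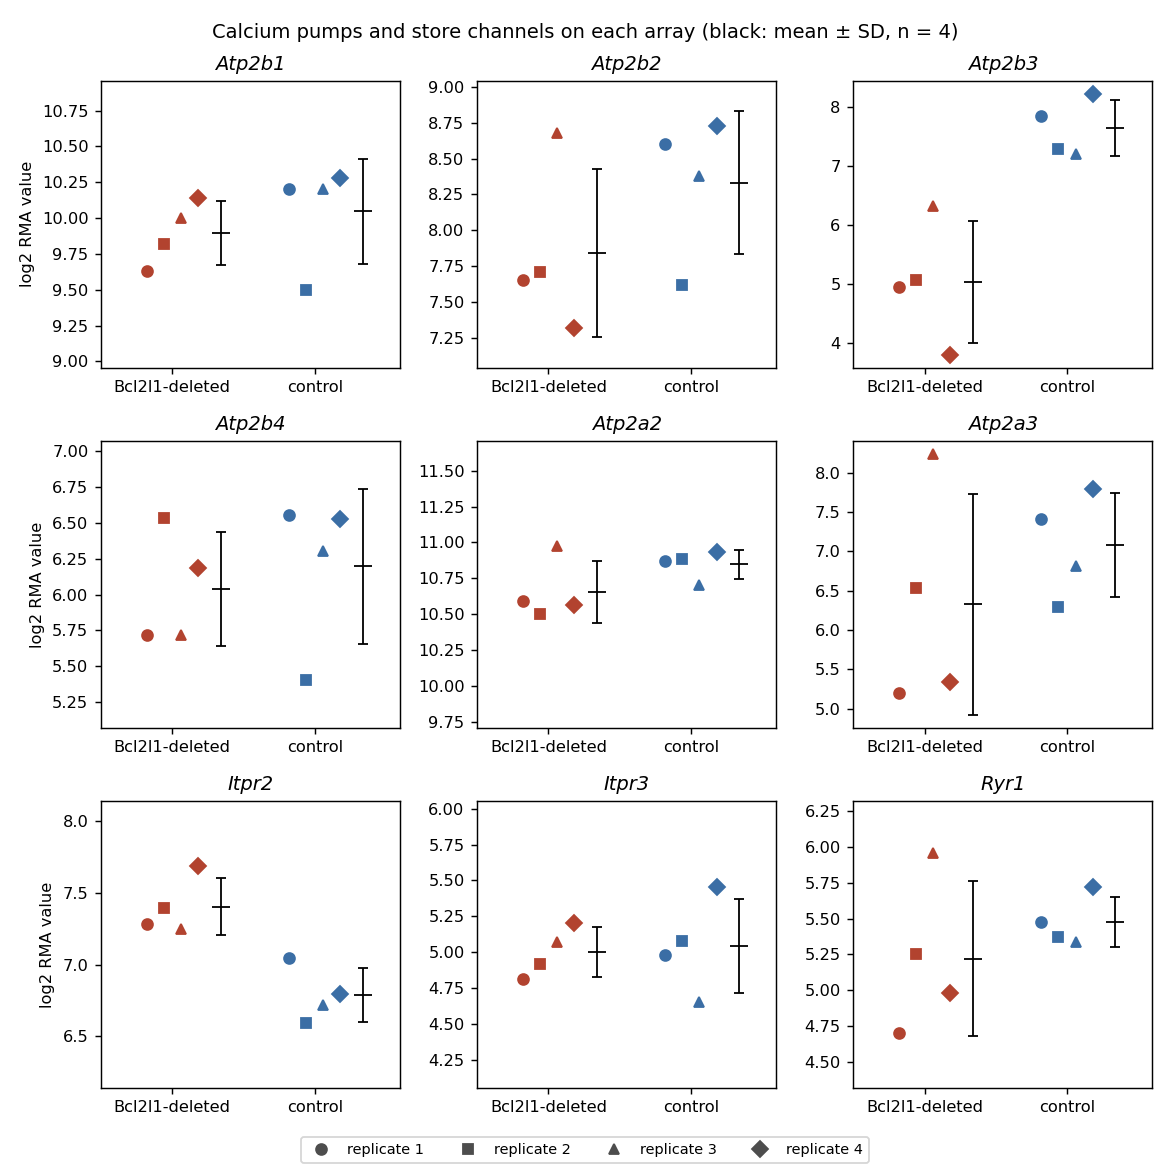
Log2 RMA values of the 9 measured members (y axes) in Bcl2l1-deleted (left, red) and control (right, blue) tumours, 1 point per array with its replicate shown by the point's shape, and the mean ± SD in black. Atp2b3 and Itpr2 have groups that do not overlap, and Bcl2l1-deleted replicate 3 stands highest of its group for Atp2b2, Atp2b3, Atp2a2, Atp2a3 and Ryr1.

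Atp2b3, the PMCA3 gene, whose product is found mainly in neurons, showed the widest separation among the members. It read 4.95, 5.08, 6.32 and 3.80 in Bcl2l1-deleted replicates 1 to 4, and 7.86, 7.30, 7.21 and 8.23 in control replicates 1 to 4. Every Bcl2l1-deleted array was below every control array, with 0.89 between the closest of them, and Bcl2l1-deleted replicate 4 lay below the filter level of 4.38 used for dim genes. Its relative change was -2.78 ± 0.44, 6.89-fold lower relative to the median gene (adjusted p = 0.0143), at percentile 0.1 of all tested changes. It no longer passed with Bcl2l1-deleted replicate 1 (adjusted p = 0.0649) or replicate 2 (0.0551) or control replicate 4 (0.0521) left out, where the relative change was -2.76, -2.79 and -2.62. Without Bcl2l1-deleted replicate 3, its highest array in that group, the relative change was -3.22 (adjusted p = 0.00771), and without control replicate 2 it was -2.81 (adjusted p = 0.0130). Over all alternatives run its adjusted p lay between 0.00331 and 0.0649.

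Atp2b3 lies on the X chromosome, so its values were also read against Xist, the RNA of the inactive X chromosome in females. Xist was high (9.63 and above) on Bcl2l1-deleted replicates 1 and 2 and on control replicates 1, 2 and 4, and low (4.92 and below) on the other 3 arrays. Among the arrays with high Xist, Atp2b3 was at 4.95 and 5.08 in Bcl2l1-deleted tumours and at 7.86, 7.30 and 8.23 in controls. Among those with low Xist it was at 6.32 and 3.80 in Bcl2l1-deleted tumours and at 7.21 in the single control. It read lower in the Bcl2l1-deleted tumours in each set of arrays, but the set with low Xist has only that single control. Its adjusted p was 0.0405 with Xist as a covariate. The part of sex in the level of Atp2b3 was not tested.

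Of the other PMCA genes, none passed the threshold. Atp2b2, the gene of PMCA2, a fast pump abundant in Purkinje cells, read 7.66, 7.71, 8.68 and 7.32 in Bcl2l1-deleted tumours and 8.60, 7.62, 8.38 and 8.73 in controls. Bcl2l1-deleted replicate 3 and control replicate 2 each lay among the other group's values, and the relative change was -0.66 ± 0.31 (adjusted p = 0.295). Without Bcl2l1-deleted replicate 3 it was -0.95 (adjusted p = 0.120) and without control replicate 2 it was -0.81 (adjusted p = 0.106).

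Atp2b1, the gene of the widely expressed PMCA1, read 9.63, 9.82, 9.998 and 10.14 in Bcl2l1-deleted tumours and 10.20, 9.50, 10.20 and 10.28 in controls. The 4 Bcl2l1-deleted arrays lay below 3 of the controls, and control replicate 2 lay below all of them. The relative change was -0.32 ± 0.20 (adjusted p = 0.624). With each array centred on its tested genes, control replicate 2 read 10.007 and the other controls 10.156 to 10.318. The Bcl2l1-deleted arrays then read 9.534 to 10.031, and the adjusted p of Atp2b1 was 0.103. Atp2b4, the gene of PMCA4, another widely expressed pump, read 5.72, 6.53, 5.72 and 6.18 in Bcl2l1-deleted tumours and 6.55, 5.40, 6.31 and 6.53 in controls. Its groups overlapped widely, control replicate 2 was again the lowest array, and its relative change was -0.33 ± 0.28 (adjusted p = 0.710). It was -0.51 (adjusted p = 0.178) without control replicate 2.

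**Figure D2:**
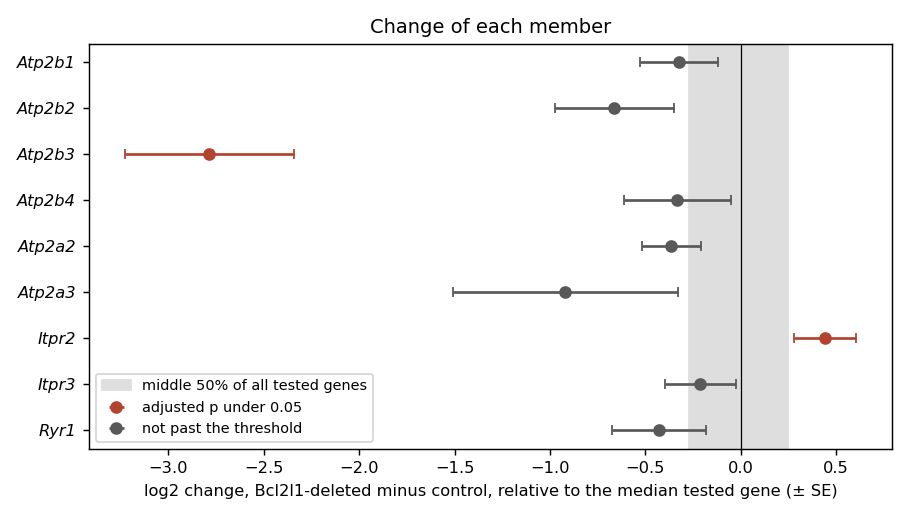
Log2 change of each measured member, Bcl2l1-deleted minus control, relative to the median tested gene (x axis, points with SE bars, n = 4 arrays per group), in red where the adjusted p is under 0.05. The grey band holds the middle 50% of all tested genes, from -0.27 to 0.25; Atp2b3 stands far below it at -2.78 and Itpr2 above it at 0.44.

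The SERCA genes did not pass. Atp2a2, the gene of the housekeeping pump SERCA2, read 10.59, 10.50, 10.97 and 10.56 in Bcl2l1-deleted tumours and 10.87, 10.89, 10.70 and 10.93 in controls. Here 3 Bcl2l1-deleted arrays lay below every control and replicate 3 lay above every control, with a relative change of -0.36 ± 0.15 (adjusted p = 0.401). Atp2a3, the gene of SERCA3, a pump found in Purkinje cells, platelets and endothelium, varied more than any other member within each group. It read 5.20, 6.54, 8.24 and 5.34 in Bcl2l1-deleted tumours and 7.42, 6.29, 6.81 and 7.79 in controls. Both the highest and the lowest value were in the Bcl2l1-deleted group, whose SD was 1.41 against 0.66 in the controls. The relative change was -0.92 ± 0.59 (adjusted p = 0.393), and it was -1.56 (adjusted p = 0.0870) without Bcl2l1-deleted replicate 3, -0.55 (0.712) without replicate 1 and -0.59 (0.678) without replicate 4 of that group. Blood cell and platelet markers (2 of 5 measured, 1 of them dim) had a mean level of 4.95 to 5.27 in Bcl2l1-deleted tumours and 4.80 to 5.15 in controls. The tested marker, Pf4, averaged 5.96 ± 0.22 in Bcl2l1-deleted tumours and 5.45 ± 0.16 in controls (SD). Its relative change was 0.35 ± 0.16 (adjusted p = 0.0730).

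Of the IP3 receptor genes, Itpr2, known as the main IP3 receptor of astrocytes, was the only member called higher. It read 7.28, 7.39, 7.25 and 7.69 in Bcl2l1-deleted tumours and 7.05, 6.59, 6.72 and 6.79 in controls. The groups did not overlap, by 0.20, and the relative change was 0.44 ± 0.16, a 1.36-fold higher level (adjusted p = 0.0486). This call stood at the threshold and was lost in 14 of the 19 alternatives run, with adjusted p-values between 0.0110 and 0.149 over all of them. When each array was centred on its tested genes, Bcl2l1-deleted replicate 3 and control replicate 2 met at 7.09 and 7.10, and the adjusted p was 0.149. It was also lost without any 1 of the 4 Bcl2l1-deleted arrays (adjusted p = 0.125, 0.136, 0.0770 and 0.129 for replicates 1 to 4) and without control replicate 3 or 4 (0.0814 and 0.107).

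**Figure D3:**
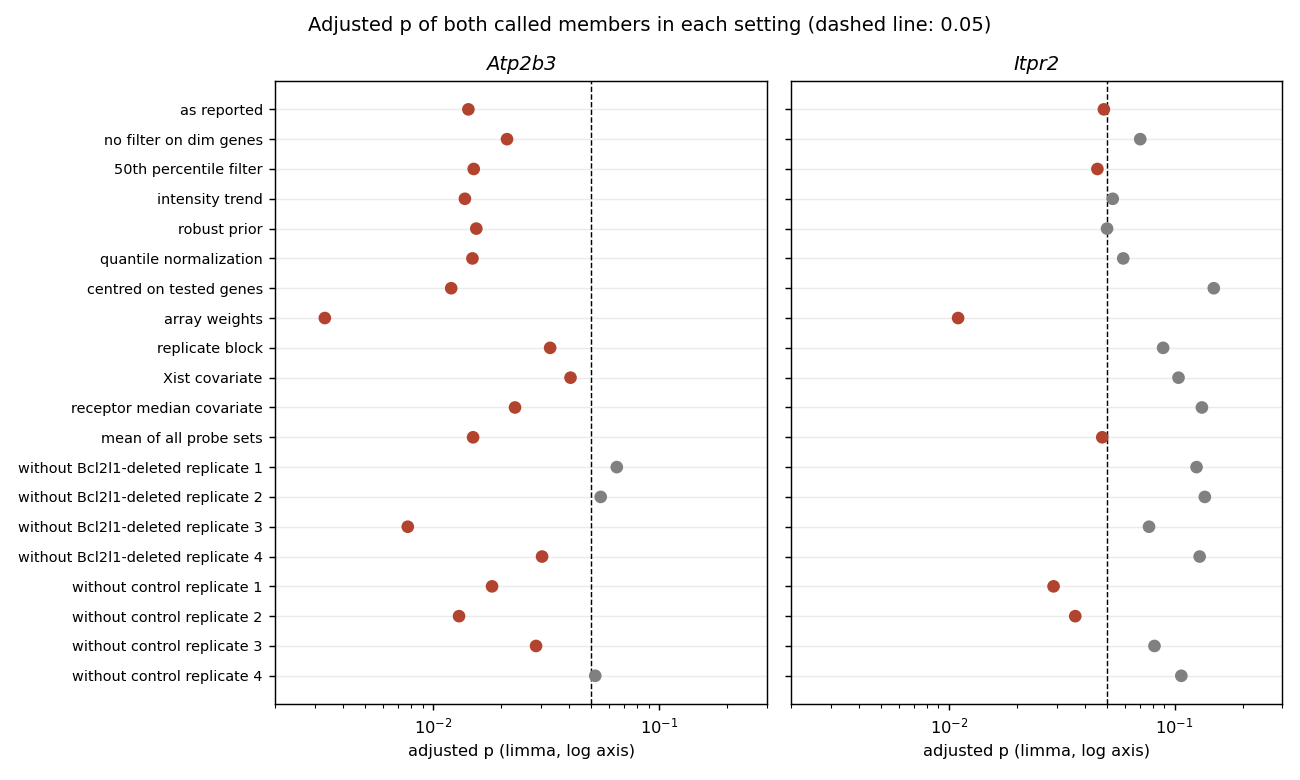
Adjusted p from limma (x axes, log scale) of Atp2b3 and Itpr2 under each setting of the fit (rows), in red where it is under 0.05 (dashed line). Atp2b3 stays below 0.05 in 16 of 19 alternatives and Itpr2 in 5 of 19.

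Itpr3, the gene of an IP3 receptor best known from epithelial and taste cells, read 4.81, 4.92, 5.07 and 5.21 in Bcl2l1-deleted tumours and 4.98, 5.08, 4.65 and 5.45 in controls. The Bcl2l1-deleted arrays all lay inside the wider range of the controls, with a relative change of -0.21 ± 0.19 (adjusted p = 0.899). It was -0.11 without control replicate 2, -0.37 without replicate 3 and -0.10 without replicate 4 of that group. A further Itpr3 probe set lay below the filter on dim genes (mean 3.92 in Bcl2l1-deleted tumours and 3.72 in controls) and did not follow the first across arrays (r = -0.03 between their deviations from the group means, 8 arrays).

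Ryr1, the ryanodine receptor gene of skeletal muscle that Purkinje cells also express, read 4.70, 5.25, 5.95 and 4.98 in Bcl2l1-deleted tumours and 5.48, 5.37, 5.33 and 5.72 in controls. As for Atp2a2, 3 Bcl2l1-deleted arrays lay below every control and replicate 3 lay above them all, and the relative change was -0.43 ± 0.24 (adjusted p = 0.480). It was -0.68 (adjusted p = 0.145) without Bcl2l1-deleted replicate 3 and -0.26 (0.851) without replicate 1 of that group. A second Ryr1 probe set averaged 4.43 ± 0.23 in Bcl2l1-deleted tumours and 4.48 ± 0.26 in controls, close to the filter level of 4.38, and its deviations correlated with those of the first at only 0.27. The skeletal muscle markers were dim for 3 of 5 genes, and their mean level was 4.15 to 4.37 in Bcl2l1-deleted tumours and 4.22 to 4.71 in controls.

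Over the 8 arrays together, 5 members tended to vary alike around their group means. The deviations of Atp2b2, Atp2b3, Atp2a2, Atp2a3 and Ryr1 from their group means correlated at 0.64 to 0.96 in all 10 pairs among them, highest for Atp2a3 with Ryr1 and next for Atp2b2 with Atp2a3 (0.90). These 5 were singled out after their values were seen, the 8 arrays share their normalization, and the correlations are a description. All 5 were highest of the Bcl2l1-deleted group on replicate 3, which weighs heavily in these values. Not every pair moved together on the other arrays. On Bcl2l1-deleted replicates 1, 2 and 4 Atp2a2 read 10.59, 10.50 and 10.56, and Atp2a3 read 5.20, 6.54 and 5.34. In control replicates 1 to 4 Atp2a2 read 10.87, 10.89, 10.70 and 10.93, and Atp2b2 read 8.60, 7.62, 8.38 and 8.73. Atp2b4 correlated with Atp2b1 (0.73) and Itpr2 (0.66), all lowest among the controls on control replicate 2, and not with Atp2b3 (-0.02).

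The levels of several cell type marker lists moved with these members. Purkinje cell markers (7 of 10 listed genes measured, 1 of them dim) had a mean log2 level of 6.33, 7.65, 9.25 and 5.33 in Bcl2l1-deleted replicates 1 to 4 and of 8.69, 8.07, 7.65 and 8.35 in control replicates 1 to 4. Replicate 3 was the highest array of all and replicate 4 the lowest, as they were among Bcl2l1-deleted arrays for Atp2b2 and Atp2b3. Deviations of this marker mean correlated with those of Atp2b3 at 0.92, Atp2a3 at 0.90, Ryr1 at 0.86, Atp2b2 at 0.76 and Atp2a2 at 0.73, but with Atp2b1 at 0.02 and Itpr2 at -0.39 (8 arrays). None of the 6 tested Purkinje markers passed: Pcp4 had a relative change of -1.56 ± 0.67, the calcium buffer gene Calb1 of -2.01 ± 1.00 and the glutamate transporter gene Slc1a6 of -1.05 ± 0.55 (adjusted p = 0.187, 0.230 and 0.284). Without Bcl2l1-deleted replicate 3, 1 of them was lower.

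Markers of granule neuron differentiation followed Atp2b3 across both groups. Their mean level over 15 genes was 6.69, 6.99, 7.54 and 6.44 in Bcl2l1-deleted tumours and 8.35, 7.67, 8.15 and 8.65 in controls, so these groups did not overlap either. Of the 15 tested, 8 were lower and none was higher, among them the adhesion gene Cntn2 (relative change -1.37 ± 0.15, adjusted p = 0.00814), the glutamate receptor gene Grm4 (-1.81 ± 0.29, adjusted p = 0.0173) and the vesicular glutamate transporter gene Slc17a7 (-2.47 ± 0.42, adjusted p = 0.0197). With Bcl2l1-deleted replicate 1, 2, 3 or 4 left out 1, 1, 8 and 3 of these markers were lower, and with control replicate 1, 2, 3 or 4 left out 7, 11, 7 and 1 were. Within the groups their mean correlated with Atp2b2 at 0.97, Atp2a3 at 0.93, Atp2b3 at 0.89, Ryr1 at 0.81 and Atp2a2 at 0.61. Like those for the Purkinje markers, these correlations use values that were not centred. Control replicate 2, with its low array median of 6.26, was the lowest control for Atp2b2, Atp2a3 and this marker mean. With each array centred on its tested genes, Atp2b2 read 8.13 there and 8.40 to 8.76 on the other controls. The part of this array-wide difference was not tested. Progenitor markers, 0 of 7 called, had a mean of 10.06 to 10.28 in Bcl2l1-deleted tumours and 9.92 to 10.24 in controls. Inhibitory interneuron and myelinating oligodendrocyte markers tended to vary with the 5 members. Their means correlated with Atp2a3 at 0.95 and 0.76, with Atp2b3 at 0.87 and 0.78 and with Atp2b2 at 0.85 and 0.85. For Ryr1 the values were 0.90 and 0.62, and for Atp2a2 0.78 and 0.65. Of their tested genes 2 of 5 and 2 of 8 were lower. With 1 array left out, 0 (Bcl2l1-deleted replicate 1, 2 or 4, control replicate 3) to 2 interneuron and 0 (Bcl2l1-deleted replicate 1, 2 or 4, control replicate 4) to 4 oligodendrocyte markers were lower. Their mean levels were 4.57 to 5.99 and 5.93 to 7.43 in Bcl2l1-deleted tumours, against 5.46 to 6.18 and 7.19 to 8.58 in controls. Lists of other cells also correlated with the 5 members. The astrocyte and Bergmann glia mean did so at 0.27 (Atp2a2) to 0.69 (Atp2b2). The endothelial mean did so at 0.13 (Atp2a2) to 0.61 (Atp2b2), and the blood cell and platelet mean at 0.15 (Ryr1) to 0.65 (Atp2b2). For mural cells the range was -0.38 to 0.24, and for microglia and macrophages -0.22 to 0.33. The part of any of these cells in the level of Atp2b3 or of the other members was not tested.

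**Figure D4:**
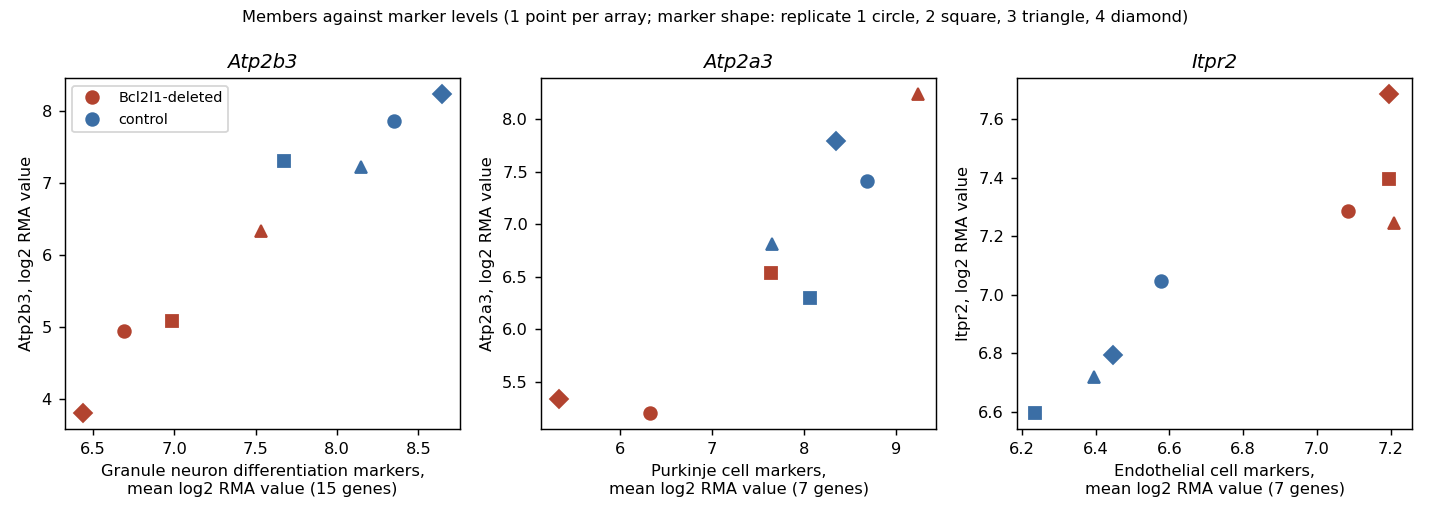
Log2 RMA values of Atp2b3, Atp2a3 and Itpr2 (y axes) against the mean log2 RMA value of a marker list on the same array (x axes), with Bcl2l1-deleted arrays in red and controls in blue. Atp2b3 runs with the granule neuron markers over both groups, Atp2a3 is highest where Purkinje cell markers are highest (Bcl2l1-deleted replicate 3, 9.25), and Itpr2 and endothelial markers are both higher on all 4 Bcl2l1-deleted arrays.

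The values of Itpr2 were also set beside markers of vessel, glial and immune cells. Endothelial markers had a mean level of 7.09 to 7.21 in Bcl2l1-deleted tumours and 6.24 to 6.58 in controls, with 4 of 7 genes higher, and mural cell markers of 6.80 to 7.12 and 5.99 to 6.63, with 2 of 6 higher. Astrocyte and Bergmann glia markers were at 8.96 to 9.52 in Bcl2l1-deleted tumours and 8.17 to 9.33 in controls. Of these 10 genes 2 were higher, Aldh1l1 (relative change 0.72 ± 0.20, adjusted p = 0.0333) and the water channel gene Aqp4 (0.80 ± 0.24, adjusted p = 0.0427). Microglia and macrophage markers were at 8.01 to 8.27 in Bcl2l1-deleted tumours and 6.50 to 7.43 in controls, with 6 of 8 higher. Within the groups the deviations of Itpr2 correlated at 0.70 with the endothelial, 0.62 with the mural, 0.35 with the astrocyte and 0.35 with the microglia and macrophage means. Members that were not called correlated more closely with the endothelial and mural means, Atp2b1 at 0.81 and 0.82 and Atp2b4 at 0.78 and 0.88. These correlations use values that were not centred. Control replicate 2, whose tested genes had a median of only 6.26, was the lowest control for Itpr2, Atp2b1, Atp2b4 and both marker means. With each array centred on its tested genes, Itpr2 read 7.10 there, the highest of the controls. The part of this array-wide difference in the correlations was not tested. No astrocyte or mural marker passed without any 1 of the Bcl2l1-deleted arrays or without control replicate 3 or 4, and astrocyte markers higher without control replicate 1 numbered 6. With Bcl2l1-deleted replicate 1, 2, 3 or 4 left out 0, 0, 2 and 2 endothelial and 0, 1, 4 and 5 microglia and macrophage markers were higher, and with control replicate 1, 2, 3 or 4 left out 4, 4, 2 and 1 and 7, 6, 5 and 4 were. Their part in the level of Itpr2 was not tested.

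The genes most like both called members within the groups were sought among 13926 other named genes. For Atp2b3 they were Syt4, a synaptotagmin (r = 0.981), Cacna1g, a T-type calcium channel gene (0.971), and Gabbr2, a GABA-B receptor subunit gene (0.968). Their relative changes were -2.02, -1.46 and -0.98, and only Syt4 passed (adjusted p = 0.0404, against 0.152 and 0.176). For Itpr2 they were Pdlim3 (r = 0.985), Igfbp3 (0.970) and Get4 (0.966), none of which was called (adjusted p = 0.854, 0.318 and 0.159). Their relative changes were -0.39, 0.29 and 0.28, so that of Pdlim3 had the sign opposite to that of Itpr2. With 8 arrays and this many genes 81 genes exceeded 0.9 with Atp2b3 and 33 with Itpr2, so such values are a description.

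Promoter windows are shown for Atp2a3 and Ryr1, the pair that varied most alike, and for Itpr2, the member called higher. RefSeq windows (GRCm38.p6, 250 bases before to 50 after the gene's start) were at hand for 7 of the 10 listed genes, 10 windows in all. On both strands, 4 motifs were sought: GGGCGG, the GC box, CAGNTG, an E-box bound by neuronal bHLH factors, AGGTCA, the half-site of ROR receptors, and GACCACCCA, the GLI site. Among 32851 windows of all genes they occurred in 35.7%, 51.4%, 16.3% and 0.253%. Capitals below mark GGGCGG and CAGNTG on either strand, and runs of capitals are overlapping or adjoining matches.
Atp2a3 (chr11:72960919-72961218, plus strand): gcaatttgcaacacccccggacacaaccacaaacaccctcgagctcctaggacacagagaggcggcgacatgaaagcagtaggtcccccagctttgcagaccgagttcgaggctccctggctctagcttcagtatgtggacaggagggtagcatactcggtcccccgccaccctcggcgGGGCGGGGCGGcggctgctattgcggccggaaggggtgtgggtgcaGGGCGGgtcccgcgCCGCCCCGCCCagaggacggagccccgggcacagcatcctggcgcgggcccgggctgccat
Ryr1 (chr7:29125102-29125401, minus strand): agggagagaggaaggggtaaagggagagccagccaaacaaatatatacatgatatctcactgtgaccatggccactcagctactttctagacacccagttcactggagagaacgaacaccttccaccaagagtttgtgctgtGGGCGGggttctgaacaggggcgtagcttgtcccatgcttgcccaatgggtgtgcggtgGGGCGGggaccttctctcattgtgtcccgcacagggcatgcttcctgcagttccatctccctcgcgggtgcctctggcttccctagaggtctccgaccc
Itpr2 (chr6:146502174-146502473, minus strand): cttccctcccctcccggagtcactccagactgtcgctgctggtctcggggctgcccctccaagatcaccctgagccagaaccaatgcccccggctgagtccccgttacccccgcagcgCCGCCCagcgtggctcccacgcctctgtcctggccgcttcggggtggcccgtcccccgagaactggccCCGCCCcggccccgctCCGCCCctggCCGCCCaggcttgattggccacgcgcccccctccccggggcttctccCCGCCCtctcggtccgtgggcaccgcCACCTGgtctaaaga
The windows of Atp2a3, Ryr1 and Itpr2 held 5, 2 and 5 GC boxes, and the Itpr2 window also held 1 E-box. They were 68.3%, 56.7% and 73.3% G or C, against a median of 52.7% over all windows. AGGTCA and GACCACCCA were in none of the 10 member windows, and E-boxes were also in 2 of the 3 Atp2b2 windows and in that of Atp2b4. A match is a description of the letters and shows no binding.

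The other calcium handling genes were read from the same fit in 7 lists by role, chosen with earlier results of these data known. Of 92 listed genes 78 were tested, of which 3 (3.85%) were higher and 7 (8.97%) were lower, beside 4.93% and 1.60% of all tested genes. Groups did not overlap for 19.2% of them, beside 23.4% of all tested genes, and their median relative change was -0.14. With 1 Bcl2l1-deleted array left out, for replicates 1, 2, 3 and 4 in that order, 0, 0, 0 and 0 were higher and 0, 0, 5 and 1 lower. With 1 control left out, in the same order, 4, 5, 1 and 0 were higher and 7, 11, 3 and 1 lower. With each array centred on its tested genes 0 were higher and 12 lower. A covariate for the median chemosensory receptor level of each array left 0 higher and 9 lower.

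Among the partners of store release, 2 of 17 tested genes were lower and none was higher. Ryr2, the ryanodine receptor of heart and neurons and close relative of Ryr1, read 4.79, 5.20, 5.88 and 4.80 in Bcl2l1-deleted tumours and 6.57, 6.24, 6.59 and 7.55 in controls. No Bcl2l1-deleted array reached a control, and the relative change was -1.75 ± 0.31 (adjusted p = 0.0227). Jph4, a junctophilin that holds the endoplasmic reticulum close to the plasma membrane in neurons, averaged 5.39 ± 0.18 in Bcl2l1-deleted tumours and 6.20 ± 0.31 in controls (SD, n = 4 each; relative change -0.99 ± 0.18, adjusted p = 0.0333).

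Calcium buffers and sensors held the largest differences of the lists, with 4 of 19 tested genes lower and 1 higher. Calb2, the calretinin gene of granule neurons and a calcium buffer, averaged 5.75 ± 1.22 in Bcl2l1-deleted tumours and 8.34 ± 0.81 in controls (SD, n = 4 each), a relative change of -2.76 ± 0.56 (adjusted p = 0.0290). Its groups overlapped barely, at 7.45 on Bcl2l1-deleted replicate 3 and 7.44 on control replicate 2. Vsnl1, a neuronal calcium sensor gene, had a relative change of -2.29 ± 0.47 (adjusted p = 0.0324), the kinase gene Camk4, expressed in granule neurons, of -1.57 ± 0.22 (adjusted p = 0.0140), and Rcan2, a regulator of the phosphatase calcineurin, of -1.17 ± 0.23 (adjusted p = 0.0369). S100b, a calcium-binding protein of astrocytes that was named after its values were seen, was the 1 higher gene (relative change 0.99 ± 0.28, adjusted p = 0.0394). The groups of Vsnl1 and S100b overlapped as well. Vsnl1 read 9.30 on Bcl2l1-deleted replicate 3 and 9.12 on control replicate 2. S100b read 8.36 on Bcl2l1-deleted replicate 4 and 8.38 on control replicate 1.

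Of the remaining lists, 3 held 1 called gene each and 2 held none. The 7 sodium-calcium exchanger genes had a median relative change of -0.50, and 1 was lower, Slc24a4 (relative change -0.88 ± 0.15, adjusted p = 0.0288). Of 10 genes of store content and refill 1 was higher, Casq1, a calsequestrin that buffers calcium inside the store (0.53 ± 0.18, adjusted p = 0.0449). Of 16 genes of IP3 production and breakdown 1 was higher, Plcg2, a phospholipase C of leukocytes and microglia (0.61 ± 0.17, adjusted p = 0.0274). It averaged 5.89 ± 0.14 in Bcl2l1-deleted tumours and 5.11 ± 0.25 in controls. None of the 4 tested partners and regulators of the pumps and none of the 5 tested genes of mitochondrial uptake passed.

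**Figure D5:**
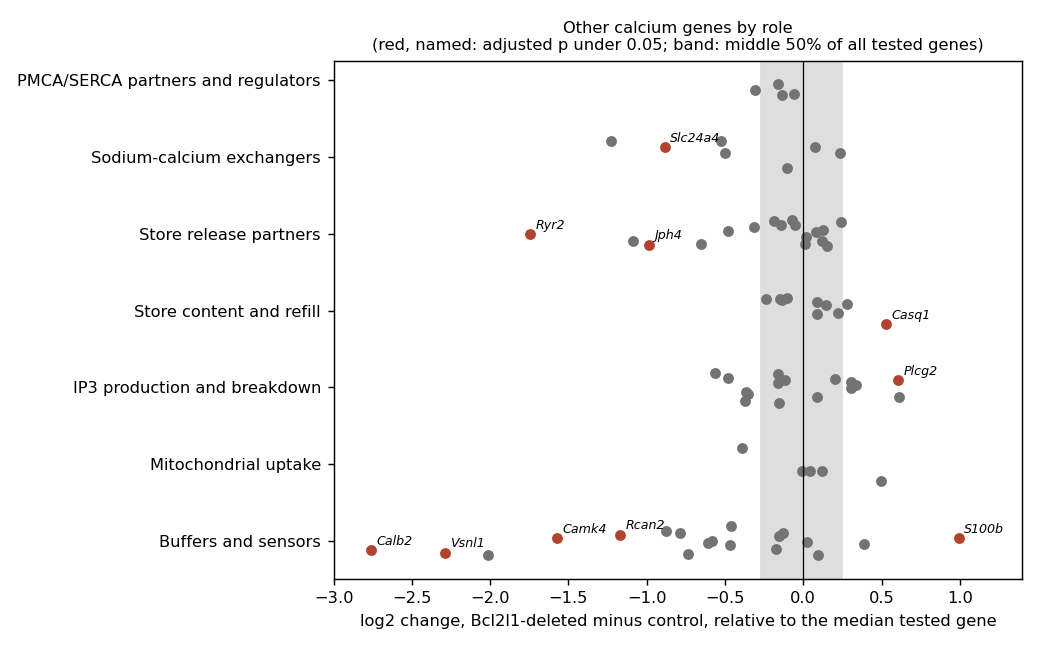
Log2 change of each tested calcium gene outside the members, Bcl2l1-deleted minus control, relative to the median tested gene (x axis), by role (rows), with the 10 called genes in red and the middle 50% of all tested genes as a grey band. The lower genes lie among the buffers and sensors, the store release partners and the exchangers, from Calb2 at -2.76 to Slc24a4 at -0.88.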

How the data were processed

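The data were 8 arrays of mouse medulloblastoma RNA, prepared with an Affymetrix WT labelling kit. Per the labels, the authors deposited RMA values on the log2 scale made in Partek's workflow for gene expression. Its version and options and any genome build are not given in the sources. RMA compresses differences near background. Groups came from the titles, since a second field reads deleted for all 8 samples.

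Of 41345 probe sets, 23521 have 1 symbol in the platform annotation, 1814 several and 16010 none. The highest-mean probe set stood for each of 22180 genes. Dim genes, 6654 with a mean no higher than the 30th percentile (4.38), were left out. limma 3.58.1 in R 4.3.3 (lmFit, eBayes, no covariate) tested 15526 genes, two-sided, with Benjamini-Hochberg adjustment at 0.05. Unadjusted, 4730 genes had a p under 0.05. On simulated data of this comparison with 15526 genes, 96% of 100 genes shifted by 2 on the log2 scale and 53% of 100 shifted by 1 were called, with 7 false calls.

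The members and all lists were chosen with earlier results of these data known. Named genes were all members, Bcl2l1, called genes of each calcium list (at most the 4 with the smallest p), at most 3 markers a list, and the 3 genes most like each called member, with S100b and Xist outside this rule. Alternatives were other dim filters, variance priors, scalings, array weights, a replicate block, covariates, other probe sets and leaving out each array.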

Additional observations from a re-analysis of the deposited data

Results flagged for a closer look

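Several values stood far from the other 3 arrays of their group. Atp2b1 was at 9.50 on control replicate 2, against 10.20 to 10.28 on the other controls. The median tested gene of that array was also lower, at 6.26 against 6.73 to 6.81, and with arrays centred on it Atp2b1 read 10.007 against 10.156 to 10.318. The dim further probe set of Itpr3 was at 4.06 on Bcl2l1-deleted replicate 3, where the others of that group had 3.86 to 3.90, and at 3.90 on control replicate 1, against 3.64 to 3.68 on the other controls. The mean of the endothelial markers was lowest of its group on Bcl2l1-deleted replicate 1 at 7.085, while the others of that group had 7.20 to 7.21. In 46 such checks 4 stood out, and chance gives about 1 in 20.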

How the results depend on the processing

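Every member kept the sign of its relative change in each of 19 alternatives, except Itpr3, whose dim further probe set gave 0.044 (the cause was not tested). Itpr3 and Ryr1 were too dim to be tested under the stricter filter. Atp2b3 kept its call in 16 of 19 (relative change -3.22 to -2.37) and Itpr2 in 5 of 19 (0.34 to 0.58), and no other member passed in any. With the receptor median covariate the relative changes of Atp2b1, Atp2b2, Atp2b4 and Atp2a3 were -0.50, -1.03, -0.65 and -1.45, and that of Atp2a2 was -0.21. The 2 members called became 1, Atp2b3, without a filter on dim genes, with an intensity trend, a robust prior, quantile normalization, centring on the tested genes, the replicate block, the Xist covariate or the receptor median covariate, and 0 to 2 when 1 array was left out. The 1013 genes called over the whole table became 548 without a filter, 3494 with array weights, 508 with the replicate block and 200 with the Xist covariate, and 20 to 2100 when 1 array was left out. The 10 other calcium genes called became 21 with array weights, 5 with the replicate block and 1 with the Xist covariate, and 0 to 16 when 1 array was left out. Without a filter more genes are tested, each single covariate or left-out array takes a degree of freedom, and the replicate block takes more than 1. The counts moved both ways, however. Leaving out control replicate 1 or 2 raised the count of all called genes to 1999 or 2100. Leaving out any other array lowered it to between 20 and 461. Array weights, which leave out no array, raised it to 3494. The cause of these moves was not tested. Centring on the tested genes turned the split of called genes from 75.5% higher to 35.8%, the receptor median covariate to 40.3%, and leaving out Bcl2l1-deleted replicate 3 to 56.5%. Same-numbered arrays did not deviate together (r = 0.04, 0.02, -0.14 and 0.05 for numbers 1 to 4). Of 8 arrays 0 correlated best with their own number. Such a check cannot exclude that same-numbered samples belong together. Under the replicate block Itpr2 had an adjusted p of 0.0889 (limma). Signals near the filter level of 4.38, as for the second probe sets of Itpr3 and Ryr1, limit what these arrays can show.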
